A study of Homo sapiens with 3 samples.

Results

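The clusters described here are the FLAG-DICER PAR-CLIP clusters on the minus strand of the human mitochondrial genome, which carries MT-ND6 and 8 of the mitochondrial tRNA genes. They were chosen by position alone: every cluster listed on chromosome M with a minus sign as its strand, in each of 4 deposited lists. This gave 93 of 11577 clusters in replicate 1, 95 of 18065 in replicate 2, 63 of 5099 in replicate 3 and 68 of 8469 in a series-wide list, or 319 of 43210 entries over the 4 lists. The lists describe the same libraries, so 1 place can appear in all of them. A cluster was called encoded when the files named a gene of the minus strand for it, antisense when they named only a gene on the opposite (plus) strand, and free of genes when they named none on either strand.

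All 3 samples belong to 1 group, numbered replicates 1 to 3, made from Flp-In HEK293 T-Rex cells with a FLAG-DICER transgene. HEK293 is an established cell line of human embryonic kidney origin, and Flp-In T-Rex lines take up a transgene at a fixed genomic site. PAR-CLIP feeds cells a photoreactive uridine analogue, links it to bound protein with ultraviolet light, digests the RNA (here with RNase T1) and recovers the fragments that come down with the tagged protein. The linked bases read as T-to-C conversions, and the count of conversions in a cluster is the main value below. Neither a library from cells lacking the tagged protein nor a measure of mitochondrial RNA abundance was used here, so the share of conversions that would arise without DICER is not known.

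Human mitochondrial DNA is transcribed from both strands into long precursors, which are cut at the tRNAs that lie between the other genes. The plus-strand precursor carries both rRNAs and all but one of the mRNAs. The minus-strand precursor starts in the control region and runs through MT-TP, MT-TE and MT-ND6 toward the rRNA genes. It carries the other minus-strand tRNAs further along, and what lies between these genes is antisense RNA, which the SUV3 helicase and the exonuclease PNPase degrade. Where it escapes degradation it can pair with plus-strand RNA into long double-stranded RNA, and double-stranded RNA is what DICER cuts in the cytoplasm.

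Most minus-strand clusters lay opposite plus-strand genes. Antisense clusters numbered 82 of 93 in replicate 1 (88.2%, exact 95% interval 79.8 to 93.9), 78 of 95 in replicate 2 (82.1%, 72.9 to 89.2) and 54 of 63 in replicate 3 (85.7%, 74.6 to 93.3), which averaged 85.3 ± 3.05% (SD, n = 3). Encoded clusters numbered 7, 12 and 7, and clusters free of genes 4, 5 and 2, in replicates 1, 2 and 3. These intervals cover counting error only.

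By conversions the encoded clusters weighed more than by number. They held 1187 of 4571 minus-strand conversions in replicate 1, 968 of 3208 in replicate 2 and 246 of 1340 in replicate 3, a share of 24.8 ± 5.99% (SD, n = 3). Antisense clusters held 3007, 2115 and 1057 conversions, a share of 70.2 ± 7.52% (SD, n = 3). Clusters free of genes held 377, 125 and 37, a share of 4.97 ± 2.90% (SD, n = 3). Counted by distinct reads, which are not raised by copies of the same read, the split was 21.4 ± 0.957% encoded and 74.3 ± 1.58% antisense (SD, n = 3 each). Replicate 3 held the lowest encoded and the highest antisense share of conversions, while by distinct reads its encoded share, 21.9%, was close to the 20.3% of replicate 1 and the 21.9% of replicate 2.

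**Figure D1:**
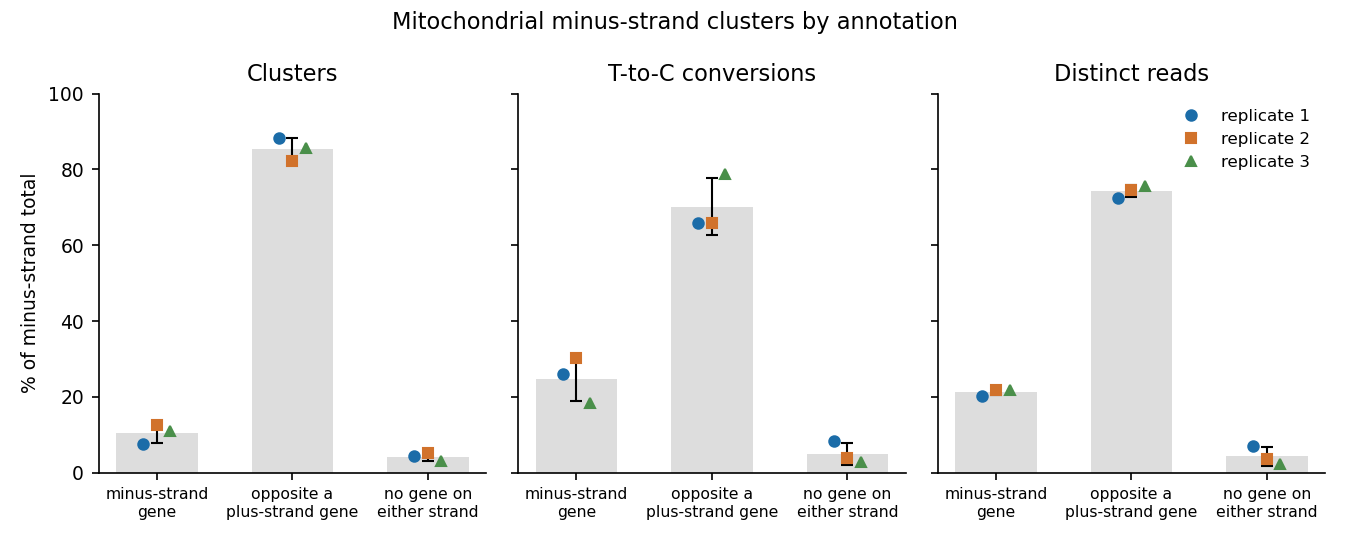
Share of minus-strand clusters (left), T-to-C conversions (middle) and distinct reads (right) that fell in encoded clusters, antisense clusters and clusters free of genes, in percent. Points are the 3 replicates, bars their mean and error bars 1 SD; antisense clusters held the largest share by each measure, 85.3% of clusters, 70.2% of conversions and 74.3% of distinct reads on average.

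Encoded clusters carried more conversions for their length. They held 1.91, 1.31 and 0.935 conversions per covered nucleotide in replicates 1, 2 and 3, against 0.490, 0.305 and 0.579 in antisense clusters, so the encoded value was higher in 3 of 3 replicates. Without the MT-TP cluster, described below, the encoded values were 0.648, 0.428 and 0.592, still the higher ones but within 1.5 times of the antisense values. The typical cluster of each class differed by less than the spread between replicates: the median log2 count of conversions per cluster differed by 0.86, 0.46 and -0.32 between encoded and antisense clusters in replicates 1, 2 and 3, or 0.33 ± 0.60 (SD, n = 3; exact two-sided sign-flip permutation p = 0.5, or 0.667 after adjustment over 4 differences). With 3 replicates that test cannot go below 0.25. Whether the replicates came from separate cultures is not labelled, so the spread it measures may be technical.

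Within the mitochondrial genome the minus strand held close to as many clusters as the plus strand but a smaller part of the conversions. It had 93, 95 and 63 clusters in replicates 1, 2 and 3, against 123, 112 and 65 on the plus strand, or 46.1 ± 3.08% of mitochondrial clusters (SD, n = 3). For nuclear chromosomes the minus-strand share of clusters was 49.0 ± 0.489%. Minus-strand conversions numbered 4571, 3208 and 1340, against 11881, 9283 and 4305 on the plus strand, or 25.7 ± 2.02% of mitochondrial conversions (SD, n = 3). The nuclear minus-strand share of conversions was 29.7%, 53.3% and 54.6% in replicates 1, 2 and 3, so in replicate 1 it was close to the mitochondrial 27.8%. In the whole lists the minus-strand clusters took 0.292 ± 0.0631% of conversions and 1.28 ± 0.383% of distinct reads (SD, n = 3 each).

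Copies of the same read were fewer on the minus strand. Minus-strand clusters had 4.98, 2.72 and 7.75 reads per distinct read in replicates 1, 2 and 3, against 7.20, 3.98 and 9.71 in plus-strand mitochondrial clusters and 18.6, 17.8 and 33.8 over whole lists. The minus-strand value was lower than the plus-strand value in 3 of 3 replicates, by 1.81 ± 0.490 reads (SD, n = 3; exact two-sided sign-flip permutation p = 0.25, the smallest possible, or 0.5 after adjustment over 8 differences). The part of this difference in the shares of conversions was not tested. A single plus-strand cluster, opposite MT-TP and described below, held 9916, 7516 and 3317 of the 21206, 12883 and 5252 plus-strand mitochondrial reads. It had 957, 1442 and 333 distinct reads, and its part in the difference was not tested either.

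Single clusters differed between the strands by less than the spread between replicates. The median minus-strand cluster was 56, 61 and 29 nt long in replicates 1, 2 and 3, against 50, 67 and 29 nt on the plus strand, a difference of 0 ± 6 nt (SD, n = 3; exact sign-flip permutation p = 1). It held 23, 16 and 12 conversions, against 22, 18 and 20 on the plus strand, a median log2 difference of -0.28 ± 0.41 (SD, n = 3; exact sign-flip permutation p = 0.5, or 0.667 after adjustment). The median over whole lists was shorter, at 32, 29 and 27 nt. Replicate 3 had the smallest list, with 29416 distinct reads against 109404 in replicate 1 and 111514 in replicate 2. In it, 32 of the 63 minus-strand clusters rested on 2 distinct reads, against 4139 of 5099 clusters of the whole list.

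Minus-strand clusters recurred between replicates. A cluster was counted as recurrent when clusters of both other replicates covered at least 1 nt of it on the same strand. This held for 42 of 93 clusters in replicate 1 (45.2%), against 11.8% of all clusters of that list. It held for 40 of 95 in replicate 2 (42.1%), against 7.51%, and for 60 of 63 in replicate 3 (95.2%), against 27.9%. Because recurrence in each replicate was counted against both others, the 3 values draw on the same shared places and are not independent repeats. The minus-strand share exceeded that of the whole list in 3 of 3 replicates, by 45.1 ± 19.3 percentage points (SD, n = 3; exact two-sided sign-flip permutation p = 0.25, the smallest possible, or 0.5 after adjustment over 8 differences).

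Length and depth move with this value: the median minus-strand cluster was longer than that of the list at large in each replicate, and 91.4%, 88.4% and 49.2% of them had at least 3 distinct reads in replicates 1, 2 and 3, against 51.8%, 27.9% and 18.8% over whole lists. With the comparison kept to clusters of at least 3 distinct reads, the excess over the whole list was 17.0 ± 6.83 points (SD, n = 3). Where at least 50% of a cluster had to be covered it was 24.1 ± 35.4 points, with 3.77, 3.53 and 65.0 points in replicates 1, 2 and 3. Density differs too: minus-strand clusters covered 7049, 7985 and 2148 nt of a strand whose last listed cluster ended at M:16563. Clusters of whole lists covered 434593, 572930 and 147984 nt over all chromosomes. A cluster on a densely covered strand can more easily meet another by 1 nt. What is left of the excess at matched length, depth and density was not tested.

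The difference in recurrence between the strands depended on which clusters were compared. Over all clusters, plus-strand mitochondrial clusters recurred in 40.7%, 42.9% and 92.3% of cases. The minus strand differed by 2.23 ± 2.70 percentage points, less than the spread between replicates (SD, n = 3; exact sign-flip permutation p = 0.5, or 0.667 after adjustment). With 1 replicate left out, recurrence needed overlap only in the 1 other replicate that remained. The difference was then -1.76 without replicate 1, 2.54 without replicate 2 and -1.47 without replicate 3. With all replicates kept, the difference among clusters of at least 3 distinct reads was 6.93 ± 2.67 points, positive in 3 of 3 replicates (SD, n = 3; exact sign-flip permutation p = 0.25, the smallest possible). These differences per replicate draw on the same shared places as well, so they are not independent repeats. In the series-wide list 34 of the 68 minus-strand clusters were overlapped in all 3 replicates, against 15.9% of all clusters of that list, 28 in 2 replicates, 4 in 1 and 2 in none. By class, all 3 replicates overlapped 4 of 9 encoded clusters, 29 of 55 antisense clusters and 1 of 4 clusters free of genes. Over the 34 places shared by all replicates, conversions ranked alike in replicates 1 and 2 (Spearman rho = 0.886) and less so in replicates 1 and 3 (0.565) or 2 and 3 (0.498). These are descriptions over places that share libraries.

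The single minus-strand cluster with the most conversions lay on MT-TP, the gene of the proline tRNA, which lies next to the control region. Its cluster ran from M:15956 to 16049 in replicate 1, from M:15956 to 16030 in replicate 2 and from M:15960 to 16026 in replicate 3 (hg19 coordinates as in the files), and it ranked first of the minus strand in every list. It held 844, 684 and 130 conversions in replicates 1, 2 and 3, which was 18.5%, 21.3% and 9.70% of minus-strand conversions, or 16.5 ± 6.06% (SD, n = 3). The share was lowest in replicate 3. By distinct reads the cluster held 198, 228 and 33, a steady 12.9 ± 0.187% of the strand (SD, n = 3).

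Its make-up of edits differed from that of the antisense clusters. The files give a count of edits per cluster, which conversions never exceeded and for which the sources used here hold no definition. Conversions made up 69.3%, 81.0% and 55.8% of edits in the MT-TP cluster in replicates 1, 2 and 3, against 78.5%, 82.2% and 93.8% in antisense clusters. The value was lower at MT-TP in 3 of 3 replicates, by little in replicate 2. Single antisense clusters lay on both sides of MT-TP in each replicate. In replicate 1, conversions were 3 of 25 edits at M:6013 to 6045 and 21 of 21 at M:4032 to 4056. A make-up particular to MT-TP is thus not shown, and the difference was described and not tested.

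The same place held the leading plus-strand cluster of the mitochondrial genome. Opposite MT-TP, the plus strand had 6190, 5433 and 2535 conversions in 1 cluster, or 56.5 ± 3.82% of plus-strand mitochondrial conversions (SD, n = 3). In replicates 2 and 3 this plus-strand cluster, M:15955 to 16097, named no plus-strand gene and only MT-TP as antisense. In replicate 1 it was longer, M:15830 to 16169, and also touched MT-CYB and MT-TT. The minus strand held 9.35 ± 3.90% of the conversions of the place (SD, n = 3), least in replicate 3.

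The strand balance of the whole genome turned on this place. Without it on either strand, the minus strand held 39.6%, 39.6% and 40.6% of the remaining mitochondrial conversions, or 39.9 ± 0.588% (SD, n = 3), against 25.7 ± 2.02% with it. The spread between replicates was narrower as well. This comparison was chosen after the values had been seen.

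MT-ND6, which encodes a membrane subunit of respiratory complex I and is the sole mRNA of the minus strand, had 5, 6 and 5 clusters in replicates 1, 2 and 3. They held 307, 212 and 114 conversions, or 7.28 ± 1.07% of the strand (SD, n = 3), and 107, 127 and 20 distinct reads. The share of conversions varied less between replicates than that of MT-TP. Per covered nucleotide MT-ND6 had 0.665, 0.436 and 0.655 conversions, near the antisense clusters (0.490, 0.305 and 0.579) and below MT-TP (8.98, 9.12 and 1.94).

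The series-wide list placed MT-ND6 conversions in 4 clusters, M:14118 to 14234, M:14251 to 14433, M:14437 to 14592 and M:14635 to 14694. The cluster with the most, M:14251 to 14433, was met by 134, 73 and 27 conversions in replicates 1, 2 and 3. The next, M:14437 to 14592, was met by 85, 81 and 87 conversions, from 47, 37 and 10 distinct reads. Replicate 3 thus equalled the others there in conversions but not in distinct reads. In that replicate 83 of 114 MT-ND6 conversions lay in a single cluster, M:14456 to 14514, which had 6 distinct reads. The plus strand opposite MT-ND6 held 675, 205 and 173 conversions. In replicate 2 the strands were close, and in replicates 1 and 3 the minus strand held less, at 31.3% and 39.7% of both.

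The other 7 minus-strand tRNA genes held little. MT-TY (tyrosine) had a cluster in 3 of 3 replicates, with 36, 33 and 2 conversions. MT-TC (cysteine), its neighbour, had 36, 23 and 0, from the same cluster in replicate 1, M:5798 to 5864, and from a shared one in replicate 2. MT-TE (glutamate), next to MT-ND6, had 25, 13 and 0, from clusters of which at most 20 nt in replicate 1 and 9 nt in replicate 2 could lie within the gene.

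MT-TS1 (one of the serine tRNAs) was named for 1 cluster of 21 conversions in replicate 2, with at most 5 nt inside the gene, and MT-TQ (glutamine) for 1 of 5 conversions, also in replicate 2, with at most 4 nt inside. MT-TN (asparagine) and MT-TA (alanine) had no cluster on either strand in any list. In all, 3 of the 9 minus-strand genes had a cluster in every replicate, 2 in 2 replicates, 2 in 1 and 2 in none. A listed cluster needs enough reads to be called, so a missing one does not show that no RNA of the gene was bound.

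**Figure D2:**
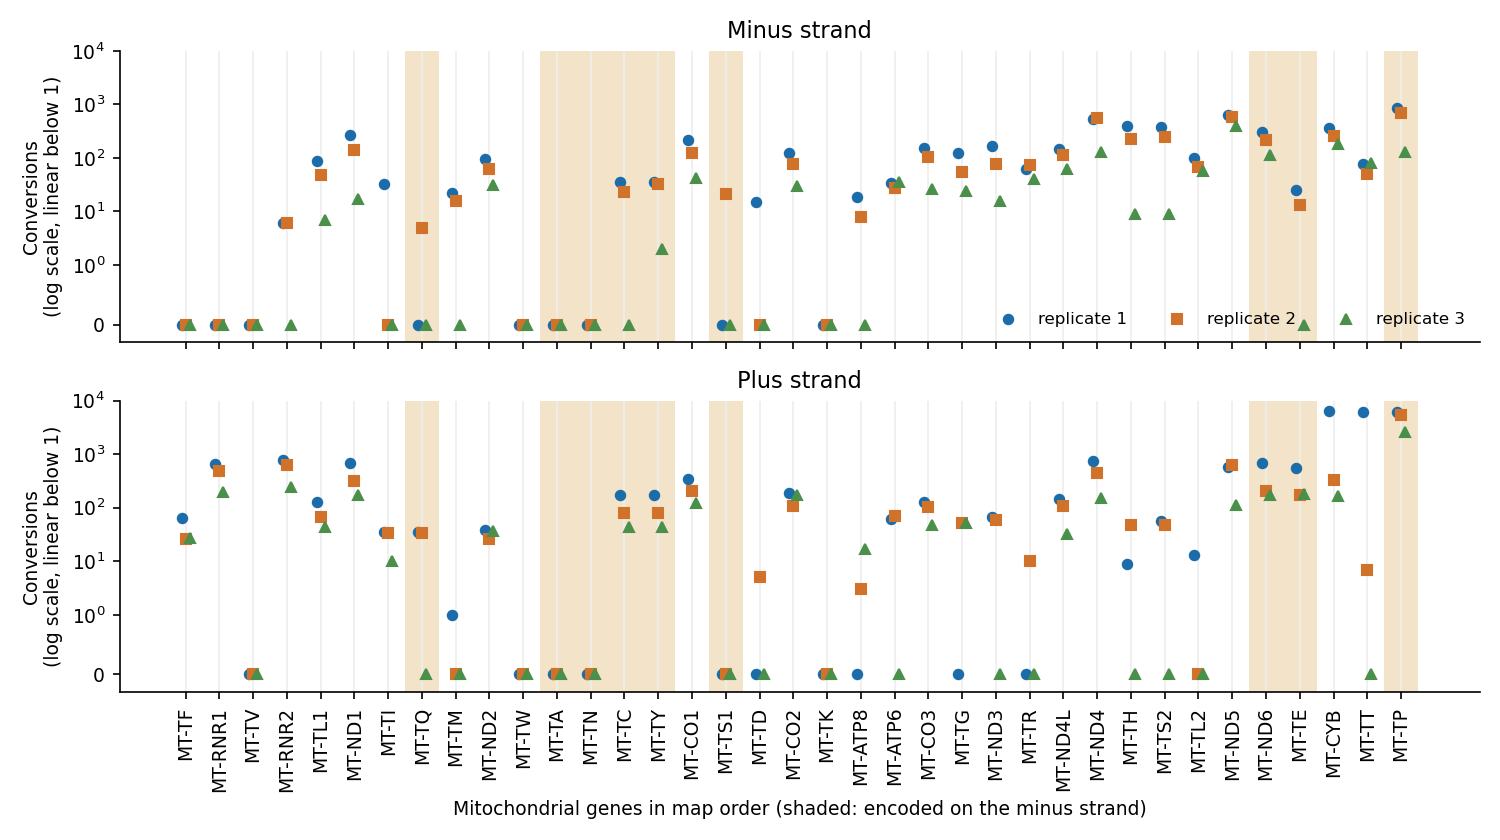
T-to-C conversions in clusters of each of the 37 mitochondrial genes, on the minus strand (top) and on the plus strand (bottom), in map order on a log scale that is linear below 1, with shading for genes encoded on the minus strand. On the minus strand an encoded cluster is counted only for the minus-strand genes it names. On the plus strand a cluster is counted for every gene named on either strand. Points are the 3 replicates; on the minus strand MT-TP, with 844, 684 and 130 conversions, MT-ND5 and MT-ND4 stand highest in replicates 1 and 2, MT-ND5 and MT-CYB in replicate 3, with 402 and 185, and MT-RNR1 is at 0 while its plus strand holds 658, 473 and 192.

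Antisense clusters covered nearly all the mRNA genes of the plus strand. Of its 12 mRNA genes 11 had an antisense cluster in every replicate, and MT-ATP8, a subunit of ATP synthase, had one in replicates 1 and 2. Of its 14 tRNA genes 7 had one in every replicate, 1 in 2 replicates, 2 in 1 and 4 in none. Over all 28 plus-strand genes this made 18 with an antisense cluster in every replicate, 3 in 2, 2 in 1 and 5 in none. A cluster that spans several genes counts for each of them. Encoded clusters that also lie opposite a plus-strand gene were not counted for that gene, here or in the values per gene below. Clusters on a gene's own strand were counted without such a limit.

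The rRNA genes stood apart. MT-RNR1, the small ribosomal RNA, had no minus-strand cluster in any list, while its own strand held 658, 473 and 192 conversions in replicates 1, 2 and 3. MT-RNR2, the large ribosomal RNA, had 1 minus-strand cluster with 6 conversions from 2 distinct reads in each of replicates 1 and 2, and none in replicate 3. Its own strand held 771, 631 and 240. MT-TF (phenylalanine), which precedes MT-RNR1, likewise had no minus-strand cluster and 65, 26 and 27 conversions on its own strand. MT-TV, MT-TW and MT-TK had no cluster on either strand.

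MT-ND5 and MT-ND4, both subunits of complex I, held the most antisense conversions on average and in replicates 1 and 2, while MT-CYB stood above MT-ND4 in replicate 3. Antisense clusters opposite MT-ND5 had 628, 584 and 402 conversions in replicates 1, 2 and 3, or 20.6 ± 8.40% of the strand (SD, n = 3). Encoded clusters of MT-ND6 that also lay opposite MT-ND5 held a further 40 in replicate 1 and 44 in replicate 2. The gene's own strand held 570, 635 and 110. The antisense side was thus near the sense side in replicates 1 and 2 and the higher one in replicate 3, where it took 30.0% of minus-strand conversions. Opposite MT-ND4 there were 534, 554 and 128, or 12.8 ± 3.99% (SD, n = 3), against 750, 448 and 150 on its own strand. These totals are not scaled to length. Per covered nucleotide, antisense clusters held 0.442, 0.366 and 0.685 conversions at MT-ND5 and 0.545, 0.426 and 0.440 at MT-ND4. Over all antisense clusters the values were 0.490, 0.305 and 0.579.

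MT-CYB, the cytochrome b subunit of complex III, had 367, 260 and 185 antisense conversions in replicates 1, 2 and 3, or 9.98 ± 3.31% of the strand (SD, n = 3). Its own strand held 331 and 162 in replicates 2 and 3, and 6487 in replicate 1, where the plus-strand cluster opposite MT-TP was assigned to it. Opposite MT-ND1 there were 262, 143 and 17, against 680, 316 and 169 on the gene's own strand, which led in every replicate.

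The cytochrome oxidase genes encode subunits of complex IV. Opposite MT-CO1 the minus strand held 216, 124 and 43 conversions, against 340, 204 and 120 on its own strand. Opposite MT-CO2 it held 126, 76 and 30, against 188, 109 and 169. Opposite MT-CO3 it held 152, 103 and 26, against 126, 101 and 48. The own strand led in 3 of 3 replicates for MT-CO1 and MT-CO2 and in 1 of 3 for MT-CO3.

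The remaining complex I genes and MT-ATP6 differed in which strand led. Opposite MT-ND2 there were 94, 63 and 31 conversions, against 38, 26 and 37 on the own strand, and opposite MT-ND3 165, 77 and 16, against 67, 58 and 0. Opposite MT-ND4L there were 144, 111 and 62, against 146, 109 and 32. The ATP synthase gene MT-ATP6 had 34, 27 and 35 antisense, against 61, 69 and 0. Of these, the antisense side led in 3 of 3 replicates at MT-ND3.

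Across the 28 plus-strand genes, antisense conversions were weakly related to those of the gene's own strand, with Spearman rho = 0.448 in replicate 1, 0.546 in replicate 2 and 0.213 in replicate 3. Genes differ in length and share clusters and libraries, so this is a description with no test.

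At several tRNA genes the minus strand held most of the conversions. MT-TH (histidine) and MT-TS2 (serine) lie side by side between MT-ND4 and MT-TL2. Opposite MT-TH the minus strand had 400, 227 and 9 conversions in replicates 1, 2 and 3, against 9, 48 and 0 on the gene's own strand. Opposite MT-TS2 it had 385, 241 and 9, against 57, 48 and 0. Most of these belong to the same clusters, and replicate 3 held few of them.

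The neighbouring MT-TL2 (leucine) had 99, 69 and 57 antisense conversions, against 13, 0 and 0. MT-TR (arginine) had 63, 74 and 41, against 0, 10 and 0. At both genes all 3 replicates were higher on the minus strand than any replicate was on the plus strand. MT-TT (threonine) had 78, 51 and 82 antisense, against 7 and 0 on its own strand in replicates 2 and 3 and the 6190 conversions of the wide cluster in replicate 1.

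MT-TG (glycine) and MT-TL1 (leucine) did not share this balance. MT-TG had 123, 55 and 24 antisense conversions, against 0, 51 and 52, and MT-TL1 had 86, 48 and 7, against 126, 67 and 44. The clusters reach past these short genes into their neighbours, so conversions cannot be assigned to the tRNA alone.

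By place, the antisense cluster that led the series-wide list lay opposite the end of MT-ND4, MT-TH and MT-TS2, at M:12046 to 12245. It was met by 446, 227 and 9 conversions in replicates 1, 2 and 3, or 9.76%, 7.08% and 0.672% of the strand, and by 84, 65 and 27 on the plus strand. The next lay opposite MT-ND5 at M:13610 to 14116 and was met by 330, 187 and 215 conversions, or 9.70 ± 5.54% (SD, n = 3). In replicate 3 this place, over its 6 clusters, held more conversions than MT-TP. The order of these antisense places in replicate 3 was thus the reverse of that in replicates 1 and 2.

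By count, most of the other leading antisense places held fewer conversions in replicate 3, the smallest list, than in replicates 1 and 2. They lay opposite MT-ND4 at M:11059 to 11490 (211, 116 and 64 conversions in replicates 1, 2 and 3), opposite MT-TL1 and MT-ND1 at M:3250 to 3821 (190, 123 and 24), and opposite MT-CYB at M:15372 to 15792 (180, 69 and 27). Further ones lay opposite MT-ND5 at M:12854 to 13197 (95, 132 and 87), opposite MT-CYB at M:15017 to 15342 (93, 120 and 53), and opposite MT-CO3, MT-TG and MT-ND3 at M:9854 to 10119 (123, 69 and 40). The last 2 of the 10 lay opposite MT-CYB and MT-TT at M:15812 to 15953 (78, 51 and 105) and opposite MT-TR and MT-ND4L at M:10459 to 10624 (74, 74 and 41). All 10 were overlapped by clusters of all 3 replicates. As a share of minus-strand conversions, replicate 3 was the highest at most of these other places, as at M:12854 to 13197 (2.08%, 4.11% and 6.49%). It was the lowest at M:3250 to 3821 and M:15372 to 15792.

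**Figure D3:**
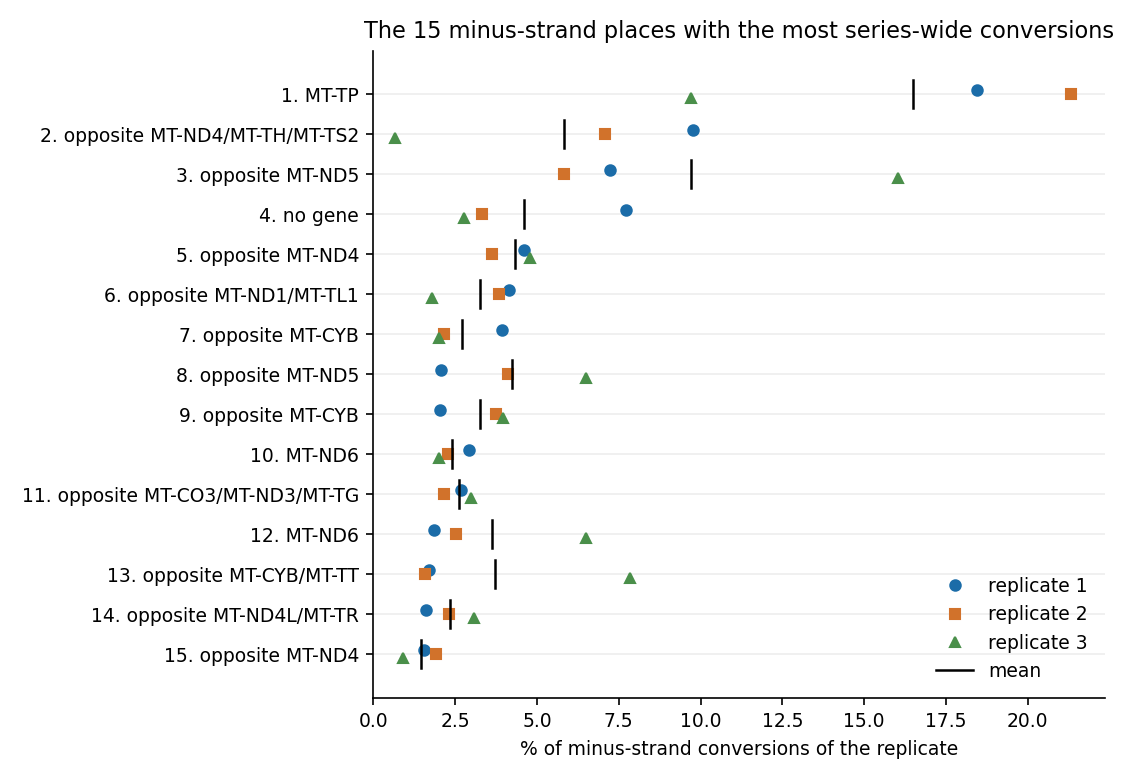
Share of minus-strand T-to-C conversions, in percent, at the 15 minus-strand places that led the series-wide list by conversions, ranked from the top and named by the encoded gene or by the genes opposite. Points are the 3 replicates and the black mark is their mean; MT-TP leads on average with 16.5%, and the place opposite MT-ND4, MT-TH and MT-TS2 spreads between 0.672% and 9.76%.

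A single cluster free of genes ranked among the leading places. It lay in the control region, where transcription of both strands begins, at M:204 to 409, and was met by 353, 106 and 37 conversions in replicates 1, 2 and 3, or 4.60 ± 2.72% of the strand (SD, n = 3). The plus strand there held 44, 21 and 0. The files mark 1 position per cluster with the abbreviation ccr, which they do not define, and a cluster of this place had it at nucleotide 287 in all 3 replicates.

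On the minus strand such a repeat to the nucleotide was seen at 2 positions, 287 and 12209, of which 12209 lies opposite MT-TH and MT-TS2. The cluster marked at 12209 in replicate 3 had its 9 conversions at 1 position. The 2 positions belonged to 2 of the 42 recurrent clusters of replicate 1, 2 of 40 in replicate 2 and 2 of 60 in replicate 3. On the plus strand 4 of 50, 4 of 48 and 4 of 60 recurrent clusters repeated their position. The share over whole lists was not measured, so whether these counts are low is not known. At MT-TP the position was 16007, 16000 and 16013 in replicates 1, 2 and 3, while on the plus strand opposite it was 16028 in all 3.

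Minus-strand clusters covered more of the end of the map than of its start. In 4 windows, 3 of 4000 nt and a last one from 12001 to the end of the map, they covered 825, 1064, 1902 and 3258 nt in replicate 1, 928, 1187, 2427 and 3443 nt in replicate 2, and 164, 198, 555 and 1231 nt in replicate 3. Coverage thus rose along the map in each replicate. The last window, which holds MT-ND5, MT-ND6, MT-CYB and MT-TP, had 62.4 ± 3.42% of minus-strand conversions (SD, n = 3), and the first, with the control region's start, both rRNA genes and most of MT-ND1, had 8.48 ± 4.15%. The control-region place at M:204 to 409 lies in the first window. It held 353 of that window's 586 conversions in replicate 1, 106 of 259 in replicate 2 and 37 of 61 in replicate 3. On the plus strand the last window held 68.9 ± 2.79% of conversions and the first 16.3 ± 2.12% (SD, n = 3 each), and plus-strand coverage was also highest in the last window, at 2732, 3348 and 706 nt in replicates 1, 2 and 3.

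With the MT-TP place left out on both strands, the last window held 49.7%, 52.3% and 62.1% of minus-strand conversions in replicates 1, 2 and 3, or 54.7 ± 6.57% (SD, n = 3), against 28.6 ± 1.89% on the plus strand. The difference was 26.1 ± 8.10 percentage points, higher on the minus strand in 3 of 3 replicates (SD, n = 3; exact two-sided sign-flip permutation p = 0.25, the smallest possible, or 0.5 after adjustment over 8 differences). The first window held 10.3 ± 5.34% on the minus strand and 37.5 ± 1.90% on the plus strand, a difference of -27.2 ± 5.08 points (SD, n = 3; exact sign-flip permutation p = 0.25, or 0.5 after adjustment). Windows and tests were chosen after the values had been seen.

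**Figure D4:**
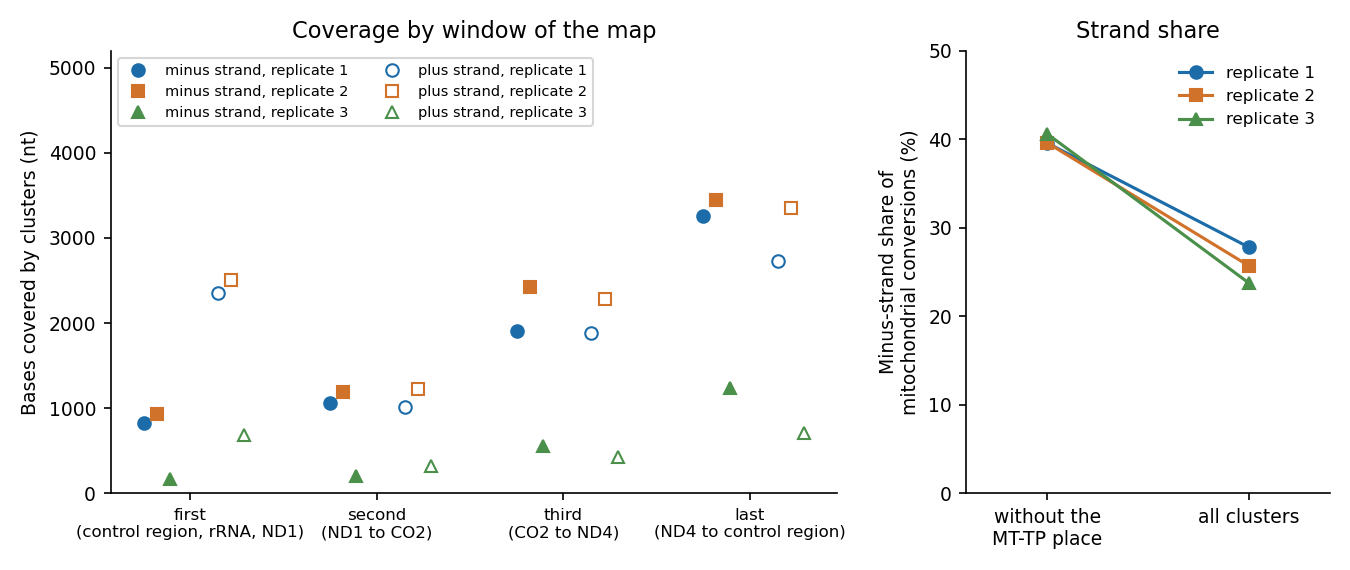
Left, bases covered by clusters in 4 windows of the mitochondrial map, for the minus strand (filled) and the plus strand (open); right, the minus-strand share of mitochondrial conversions, in percent, without the MT-TP place and with all clusters. Symbols are the 3 replicates; minus-strand coverage is highest in the last window of each, at 3258, 3443 and 1231 nt, and the strand share is 39.9% on average without the MT-TP place and 25.7% with it.

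Many minus-strand bases were also covered on the plus strand. The part was 68.0%, 79.5% and 19.7% of the minus-strand bases in replicates 1, 2 and 3. An antisense cluster had a plus-strand cluster opposite it in 72 of 82 cases in replicate 1, 67 of 78 in replicate 2 and 17 of 54 in replicate 3, or 87.8%, 85.9% and 31.5%. Encoded clusters had one in 100%, 100% and 28.6% of cases, and plus-strand mitochondrial clusters in 68.3%, 73.2% and 29.2%. Over whole lists 1.60%, 1.05% and 0.863% of clusters had a cluster on the opposite strand. Most of these were themselves mitochondrial: 81 on the minus and 84 on the plus strand of 185 in replicate 1, 84 and 82 of 190 in replicate 2, and 19 and 19 of 44 in replicate 3. The density of clusters moves with the share that has a cluster opposite, and its part in the difference from whole lists was not tested. Replicate 3 covered the least, with 2148 nt on the minus strand and 2138 nt on the plus strand, against 7049 and 7985 nt in replicate 1 and 7985 and 9373 nt in replicate 2.

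Over the 3 replicates together, minus-strand clusters covered 9038 nt in at least 1 replicate and 1910 nt in all 3, which was 21.1%. On the plus strand 1879 of 10615 nt were covered in all 3, or 17.7%. The files named no nuclear pseudogene of a mitochondrial gene for any cluster of the 4 lists. The sources used here do not say how reads that also match nuclear copies of mitochondrial DNA were placed.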

How the data were processed

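Values are those of 3 PAR-CLIP replicates of 1 group, with 2 sequencing runs each, per the labels. Bowtie2 2.1.0 and the hg19 build are given in the submitters' processing notes. The files name the program that wrote the clusters without its version. The authors deposited 1 cluster list per replicate and 1 series-wide list, whose clusters had reads from 2 or 3 replicates, at an estimated false discovery rate of 5%, per the file attributes. The main value of a cluster is its count of T-to-C conversions as deposited, which is not scaled to depth. The deposited entropy score per cluster was read and not used. Reads, distinct reads, edits and gene names came from the deposited attribute text. The total depth of the libraries is unknown, so the distinct reads in each list stand in for it.

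From these, clusters were sorted by strand and gene and compared with Python 3.11.15, pandas 2.3.3, numpy 2.4.6 and SciPy 1.17.1, which gave exact (Clopper-Pearson) intervals. An exact two-sided sign-flip permutation test was run on differences per replicate, with Benjamini-Hochberg adjustment over 4 planned differences, or over 8 for those added after the values had been seen. Recurrence needed an overlap of 1 nt on the same strand. The overlap and sign-flip calculations were tested on simulated data. Named were all minus-strand genes, the plus-strand genes with an antisense cluster in all 3 replicates and the genes opposite the 10 antisense clusters with the most series-wide conversions. Plus-strand genes named beside these for having few or no antisense clusters were chosen after their values were seen. The members and lists were chosen with earlier results of these data known. Alternatives left out each replicate, filtered clusters, used the series-wide list or distinct reads, or changed the overlap or the meaning of antisense.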

Additional observations from a re-analysis of the deposited data

How the results depend on the processing

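No paired analysis was possible because the series has 1 group, so no groups share replicate numbers; differences between strands or classes were taken within each replicate. Among the values that answer a comparison, 54 recomputed values stayed within the replicate spread or kept their direction, 8 moved and 4 turned sign. The main difference in median cluster length was 0 nt, so its recomputed values could not be counted as turned, whatever their sign. They ran between -3 and 3 nt when replicates were left out. The minus-strand share of mitochondrial clusters was 50.2% with 3 or more distinct reads and 42.4% at or above the median conversions of the list, against 46.1%. The minus-strand share of mitochondrial conversions was 33.8% by distinct reads, 22.4% without the MT-TP cluster and 39.9% without the MT-TP place on both strands, against 25.7%. The minus-strand share of whole lists was 1.28% by distinct reads, against 0.292% by conversions. Antisense clusters made up 80.9% of minus-strand clusters in the series-wide list and held 83.9% of conversions without the MT-TP cluster. The recurrence difference between strands, 2.23 points, became -4.61 at or above the median conversions and -0.830 with a 50% overlap. It was 6.93 with 3 or more distinct reads and 4.44 in the series-wide list. When replicates were left out it ran between -1.76 and 2.54, with overlap needed only in the 1 other replicate that remained. The excess of minus-strand recurrence over the whole list, 45.1 points, was 28.4 points at or above the median conversions. Leaving out a replicate gave an antisense share of conversions between 65.9% and 72.4% and a minus-strand share of mitochondrial conversions between 24.7% and 26.7%. The cause of these shifts was not tested beyond what each alternative removes. No test could pass 0.05, since 3 replicates allow 0.25 at best, and cluster lists limit what can be seen to places with enough reads.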
